A study of Drosophila melanogaster with 27 samples.

Results

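Transcripts of the male germ line were followed in whole *w1118* animals of *Drosophila melanogaster* from the late larva to the early pupa. The genes were *dj* and every gene named *Mst* (male-specific transcript) followed by a digit, each read from the brightest probe set that the array annotation assigned to that gene alone. This gave 15 genes, with 1 probe set each, among 10844 genes with a probe set of their own and 13966 probe sets in all. *Mst84Dd*, *Mst87F*, *Mst98Ca*, *Mst98Cb* and *dj* were the 5 genes of main interest. Animals carried the *w1118* allele at every stage, received no treatment, and were collected at 9 stages: larvae at -18 and -4 h, prepupae at 0, 2, 4, 6, 8 and 10 h, and pupae at 12 h, all in hours relative to pupariation, the formation of the puparium. Each of the 27 samples, 3 per stage, was total RNA pooled from 10 animals and was hybridized to its own Affymetrix array. The sex of the animals is not given in the labels. The testis is present only in the males of each pool, so a higher share of males, more testis cells per male and more RNA per testis cell cannot be told apart in these samples.

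Spermatogenesis in *Drosophila* begins with spermatogonia, which become primary spermatocytes that grow for a long time before the meiotic divisions. Primary spermatocytes transcribe most of the genes needed for making sperm, and many of these mRNAs are held untranslated until the spermatids elongate after meiosis. The testis of the last larval instar already holds growing spermatocytes, and the first cysts reach meiosis around the onset of metamorphosis. *Mst84Da*, *Mst84Db*, *Mst84Dc*, *Mst84Dd*, *Mst87F*, *Mst98Ca* and *Mst98Cb* form a family of short, cysteine-rich sperm tail proteins built from Cys-Gly-Pro repeats. *dj* (don juan) encodes a protein of the sperm tail, and *Mst77F* a linker-histone-like protein of sperm chromatin. *Mst57Da* and *Mst57Dc* are peptide genes of the adult male accessory gland and not of the testis, so the rule by name takes in genes outside the germ line.

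In the reference gene order (Release 6 plus ISO1 MT), 13 of the 15 genes lie on chromosome arm 3R, *Mst33A* on 2L and *Mst77F* on 3L. *Mst84Dd*, *Mst84Dc*, *Mst84Db* and *Mst84Da* follow each other with 0 protein-coding genes between neighbours, and so do *Mst98Ca* and *Mst98Cb*. Between *dj* and *Mst84B* lies 1 protein-coding gene. Whether the probes of related family members bind each other's transcripts was not tested, so agreement within the *Mst84D* cluster or between *Mst98Ca* and *Mst98Cb* need not come from separate measurements.

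Array medians lay between 249.4 and 277.3 intensity units, and in each array 8.81 to 10.8% of the values did not exceed 60.26, the floor used for the tests. The arrays -18 h replicate 2 and -4 h replicate 1 stood apart from the others of their stages. Over all tested probe sets the SD of their log2 deviations from the stage mean was 0.459 and 0.405, against 0.0803 to 0.318 in the other 25 arrays. For tests at the larval stages, the calls that were gained or lost without these arrays are given beside the result. Intensities below are the deposited linear values, with mean ± SD over n = 3 arrays, and a fold is the ratio of geometric means of the floored values. Since probe sets bind with unequal strength, levels are compared within a gene and not between genes.

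*Mst87F* and *Mst84Dd* were low in the earlier larva and higher in every later sample. The *Mst87F* intensity was 723, 460 and 386 in replicates 1, 2 and 3 at -18 h, and 960, 1543 and 1595 at -4 h. It was 1241, 1740 and 1921 at 0 h, 1472, 1690 and 1600 at 2 h, and 2292, 2078 and 2661 at 4 h. It was 2599, 1794 and 2743 at 6 h, 2400, 2656 and 2736 at 8 h, 2275, 2026 and 2821 at 10 h, and 1926, 3227 and 3008 at 12 h. The 3 arrays of -18 h lay below all 24 later arrays, and the stage mean went from 523 ± 177 at -18 h to 2720 ± 696 at 12 h. From 4 h on the stages overlapped, and the 12 h arrays held both the highest value of the series for *Mst87F* and one below every array of 8 h.

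The same course was seen for *Mst84Dd*. Its intensity was 1537, 1019 and 713 at -18 h, and 2371, 3268 and 3770 at -4 h. It was 2533, 3585 and 3111 at 0 h, 3149, 4119 and 3263 at 2 h, and 4906, 4550 and 5302 at 4 h. It was 5450, 4007 and 5801 at 6 h, 4724, 5007 and 5660 at 8 h, 5387, 4528 and 6241 at 10 h, and 3518, 5636 and 5912 at 12 h. The -18 h arrays again lay below all later ones, the highest stage mean was 5385 ± 856 at 10 h, and the arrays of 4 h lay above all arrays of 2 h.

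The don juan transcript, *dj*, was low and uneven in the larva. Its intensity was 173, 34.5 and 67.3 at -18 h and 48.6, 244 and 324 at -4 h, so that 1 array of each larval stage was below the floor, and these were the 2 arrays that stood apart. It was 220, 321 and 335 at 0 h, 259, 346 and 342 at 2 h, and 504, 400 and 453 at 4 h. It was 525, 336 and 595 at 6 h, 472, 516 and 476 at 8 h, 373, 335 and 546 at 10 h, and 319, 489 and 426 at 12 h. All prepupal and pupal arrays lay above all -18 h arrays, while -4 h overlapped with -18 h. The stage mean was highest at 8 h, at 488 ± 24.3, against 91.6 ± 72.3 at -18 h.

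*Mst98Ca* and *Mst98Cb* changed less. The *Mst98Ca* intensity was 1598, 977 and 1185 at -18 h, 1495, 1713 and 1841 at -4 h, 1470, 1620 and 1809 at 0 h, and 1456, 1662 and 1552 at 2 h. It was 1802, 1814 and 1826 at 4 h, 1861, 1892 and 1831 at 6 h, 2030, 2215 and 2272 at 8 h, 2026, 1830 and 2366 at 10 h, and 1673, 2109 and 2019 at 12 h. Replicate 1 of -18 h was as high as single arrays of -4, 0 and 2 h, so that -18 h overlapped with these stages and not with 4 h or any later one. Its highest stage mean was 2172 ± 126 at 8 h, against 1253 ± 316 at -18 h.

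The *Mst98Cb* intensity was 281, 268 and 223 at -18 h, 307, 379 and 326 at -4 h, 300, 348 and 421 at 0 h, and 336, 471 and 338 at 2 h. It was 436, 394 and 454 at 4 h, 516, 485 and 509 at 6 h, 445, 465 and 491 at 8 h, 499, 474 and 560 at 10 h, and 359, 507 and 540 at 12 h. All -18 h arrays lay below every later array, and the highest stage mean was 511 ± 44.1 at 10 h, against 257 ± 30.6 at -18 h.

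**Figure D1:**
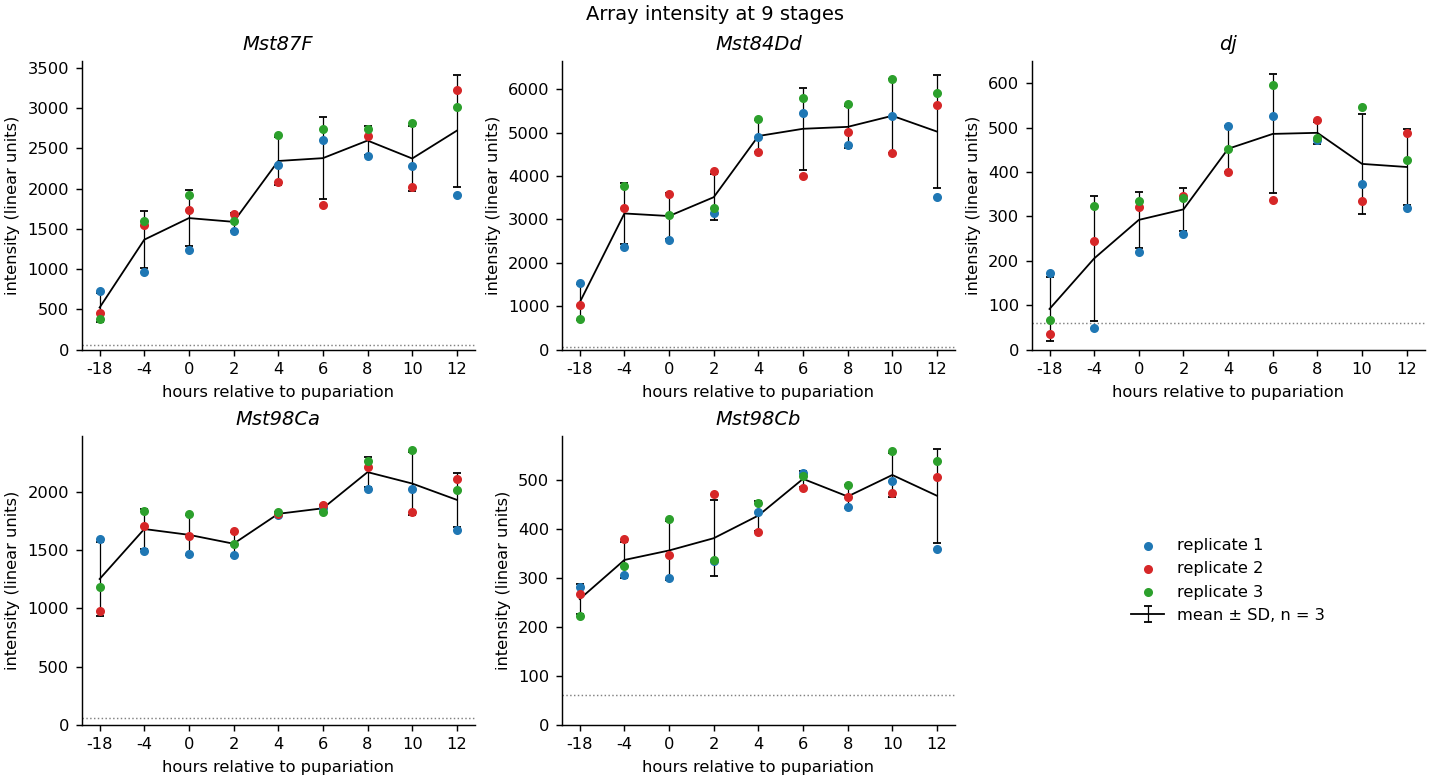
Deposited array intensity (linear units, each panel with its own axis from 0) of the 5 genes of main interest at 9 stages in hours relative to pupariation. Points are single arrays coloured by replicate number, the line joins the stage means with SD bars (n = 3), and the dotted line is the floor of 60.26. *Mst87F* goes from a mean of 523 at -18 h to 2720 at 12 h, whereas *Mst98Ca* goes from 1253 to 1934.

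Of the remaining *Mst84D* genes and *Mst77F*, all had their lowest stage mean at -18 h. The *Mst84Da* mean went from 762 ± 200 at -18 h through 1569 ± 412 at -4 h to 2509 ± 175 at 8 h, its highest stage. *Mst84Dc* had a mean of 1227 ± 238 at -18 h, of 2147 ± 344 at -4 h and of 2738 ± 148 at 8 h, again its highest stage. For *Mst84Db* the mean was 628 ± 67.6 at -18 h and 906 ± 51.5 at -4 h, and it was highest at 12 h, at 1120 ± 160. *Mst77F* was measured at 310, 261 and 144 at -18 h, and at 535, 892 and 869 at 12 h, with its highest mean of 803 ± 138 at 6 h. In these 4 genes all arrays of -18 h lay below every later array.

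The other *Mst* genes followed different courses. *Mst33A* went from 258 ± 21.8 at -18 h to 491 ± 96.5 at 6 h and 393 ± 78.3 at 12 h, with the -18 h arrays below all later ones. *Mst84B*, *Mst85C* and *Mst89B* had overlapping arrays at all 8 pairs of stages that are neighbours in the order of their means. Their stage means ran from 115 to 156 for *Mst84B*, from 287 to 339 for *Mst85C* and from 150 to 240 for *Mst89B*. The highest *Mst89B* values, 378 and 338, came from the 2 arrays that stood apart.

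The accessory gland genes did not share the larval low. *Mst57Da* was highest at -18 h, at 264 ± 38.7, and lay between 171 and 215 on average at all later stages. *Mst57Dc* was above the floor on 1 array only, -18 h replicate 2, with an intensity of 107. Its next highest value, 54.6, was in -4 h replicate 1, the other array that stood apart. The remaining arrays gave 4.44 to 42.0, and the gene was not tested.

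**Figure D2:**
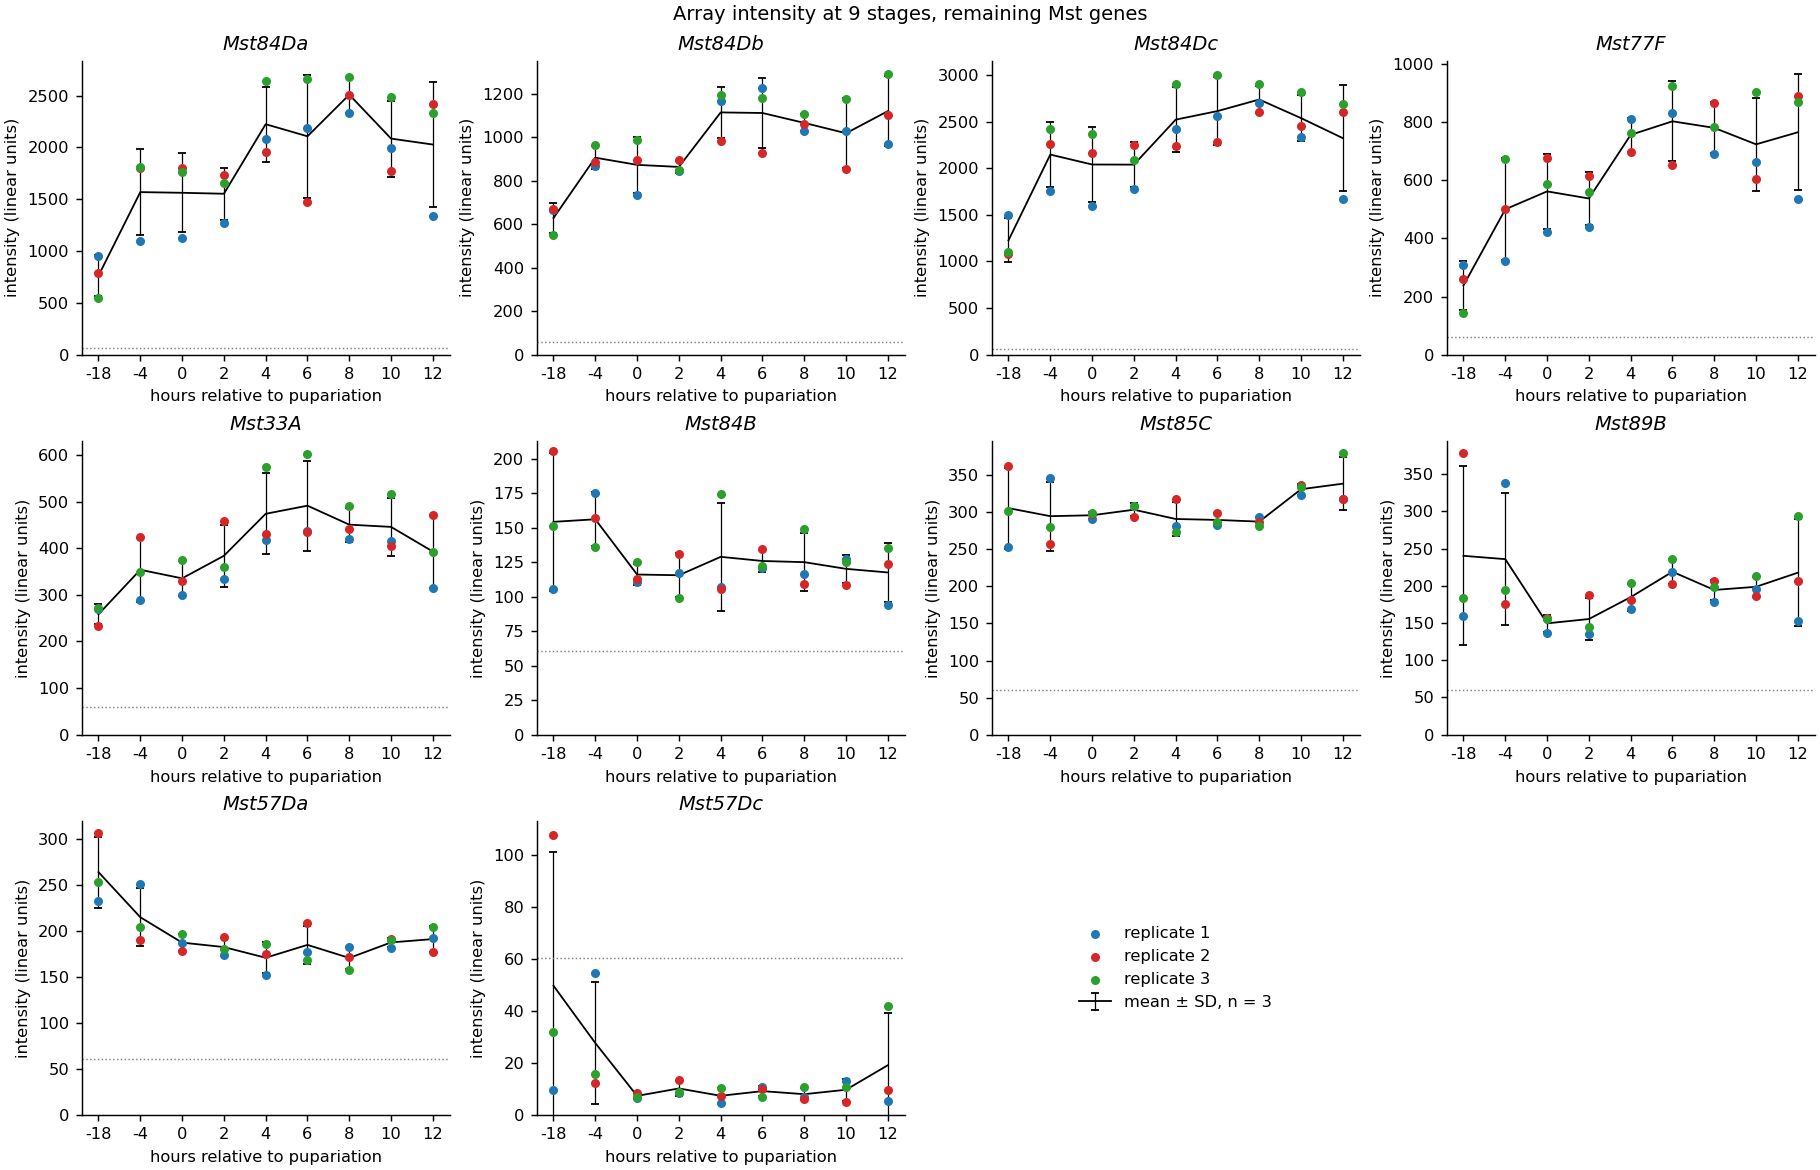
Deposited array intensity (linear units, each panel with its own axis from 0) of the other 10 *Mst* genes at 9 stages in hours relative to pupariation. Points are arrays coloured by replicate number, the line joins the stage means with SD bars (n = 3, cut off at 0 for *Mst57Dc*), and the dotted line is the floor of 60.26. *Mst84Da* goes from a mean of 762 at -18 h to 2509 at 8 h, while *Mst57Dc* is above the floor on 1 array.

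In 10 genes the stage mean was lowest at -18 h: *dj*, *Mst33A*, *Mst77F*, the 4 *Mst84D* genes, *Mst87F*, *Mst98Ca* and *Mst98Cb*. Over all tested probe sets the mean was lowest at -18 h in 30%. The -18 h arrays lay below every later array in 8 of the 15 genes, against 5.53% of the tested probe sets, and below all 12 h arrays in 10, against 22.8%. The highest stage was 6 h for *Mst33A* and *Mst77F*, 8 h for *Mst84Da*, *Mst84Dc*, *Mst98Ca* and *dj*, 10 h for *Mst84Dd* and *Mst98Cb*, and 12 h for *Mst84Db* and *Mst87F*. In each of these 10 genes the arrays of at least 6 of the 8 neighbouring pairs of stages in the order overlapped, so the order among the later stages is not resolved.

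Differences between stages were tested with limma over all 12854 probe sets above the floor in the 3 arrays of at least 1 stage, which included 14 of the 15 genes. A gene was called when its p, adjusted by Benjamini-Hochberg, was under 0.1 and its levels differed by 1.5-fold or more. Over the 9 stages 11 of the 14 genes were called, where 49.5% of all tested probe sets were. The range between the lowest and the highest stage was 5.49-fold for *dj* (adjusted p = 0.000442), 5.26-fold for *Mst87F* (adjusted p = 2.32e-07) and 5.15-fold for *Mst84Dd* (adjusted p = 2.44e-07). It was 1.99-fold for *Mst98Cb* and 1.77-fold for *Mst98Ca* (limma adjusted p = 0.000101 and 0.000923). The genes not called were *Mst84B* (adjusted p = 0.415), *Mst85C* (0.442) and *Mst89B* (0.297). *Mst57Da* was called at a range of 1.54-fold with its high at -18 h, and this call was lost without -18 h replicate 2, where the range was 1.42-fold. *Mst84B* was called without -18 h replicate 1 (1.54-fold, limma adjusted p = 0.0904), and *Mst98Ca* was not under quantile normalization, at 1.39-fold.

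By the median of the genes, the step between the larval stages, which spans the longest interval of the series, was larger than any later one. At -4 h against -18 h 5 genes rose, 0 fell and 9 were not called, where 9.86% of the tested probe sets were called higher and 3.66% lower. *Mst84Dd* rose 2.97-fold (log2 difference 1.57, SE 0.24, limma adjusted p = 3.9e-05) and *Mst87F* 2.64-fold (1.40, SE 0.24, adjusted p = 0.000165). *Mst77F* rose 2.11-fold, *Mst84Da* 2.06-fold and *Mst84Dc* 1.75-fold (limma adjusted p = 0.00677, 0.00667 and 0.00271). The median log2 difference of the 14 genes was 0.49, against 0.01 for all tested probe sets. *dj* stood at 1.89-fold with an adjusted p of 0.15, and *Mst84Db* at 1.45-fold, below the fold limit.

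The larval step depended on which arrays entered. Without the 2 arrays that stood apart 7 genes were called, *dj* (2.60-fold, limma adjusted p = 0.00449) and *Mst84Db* being added. With 1 array left out, *dj* was also called without -4 h replicate 1 (3.16-fold) and without -18 h replicate 1 (2.64-fold), and *Mst98Ca* without -18 h replicate 1 (1.56-fold). In a limma fit to the 6 larval arrays alone, 2 genes were called, *Mst84Dd* and *Mst87F*. Under quantile normalization the *Mst84Dc* call was lost, at 1.41-fold.

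No single step after -4 h passed the test. At 0 h against -4 h, 2 h against 0 h, 4 h against 2 h, 6 h against 4 h, 8 h against 6 h, 10 h against 8 h and 12 h against 10 h, limma called 0 of the 14 genes, where 7.98, 2.64, 2.75, 3.33, 5.26, 5.41 and 4.88% of the tested probe sets were called in either direction. At an unadjusted p under 0.05 there was 1 gene at the first of these steps, *Mst89B*, and there were 2 at 4 h against 2 h, *Mst87F* and *Mst84Db*, with 0 at the other steps. The *Mst87F* step from 2 to 4 h was 1.47-fold (limma adjusted p = 0.463) and that of *Mst84Db* 1.29-fold (adjusted p = 0.284). The median of the 14 genes at 4 h against 2 h was 0.30 on the log2 scale, against 0.00 for all tested probe sets. *Mst89B* was called lower at 0 h against -4 h without -4 h replicate 2 (1.72-fold) or without replicate 3 (1.63-fold), and *dj* was called higher without -4 h replicate 3 (2.37-fold). A step below the fold limit is never called under this rule, so these counts do not show that the levels stayed the same.

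Over the part of the prepupal period from 0 to 6 h the sum of such steps was called in 1 gene. At 6 h against 0 h *Mst84Dd* rose 1.65-fold (limma adjusted p = 0.0426), 0 genes fell and 13 were not called, where 4.6% of the tested probe sets were called higher. The call was lost without 0 h replicate 1, 6 h replicate 1 or 6 h replicate 3, with an adjusted p of up to 0.207, and 3 genes were called without 0 h replicate 3 or without 6 h replicate 2. *Mst98Cb* had an adjusted p of 0.0247 at 1.42-fold, below the fold limit, and the median log2 difference of the 14 genes was 0.47. This comparison was chosen after the values were seen.

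From the earlier larva to the pupa most of the genes rose. At 12 h against -18 h 10 of the 14 genes were called higher and 0 lower, where 17.4% of the tested probe sets were higher and 11.7% lower. The median log2 difference of the 14 genes was 0.84, against 0.00 for all tested probe sets. The sperm tail genes *Mst87F* and *Mst84Dd* rose 5.26-fold (log2 difference 2.40, SE 0.24, limma adjusted p = 3.8e-08) and 4.72-fold (2.24, SE 0.24, adjusted p = 1e-07). *dj* rose 4.56-fold with a larger error (2.19, SE 0.44, adjusted p = 0.000316), and 2 of its -18 h arrays were above the floor and 1 below it. The chromatin protein gene *Mst77F* rose 3.29-fold (adjusted p = 2.9e-05).

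The other members of the sperm tail family, and *Mst33A* outside it, spanned a range of folds. *Mst84Da* rose 2.64-fold, *Mst84Dc* 1.87-fold and *Mst84Db* 1.78-fold, so that the 4 neighbours of the *Mst84D* cluster ran from 1.78-fold to 4.72-fold. *Mst98Cb* rose 1.80-fold, *Mst98Ca* 1.57-fold and *Mst33A* by a log2 difference of 0.59, just past the limit (limma adjusted p = 0.000116, 0.000644 and 0.00979). The calls of *Mst33A* and *Mst98Ca* lay close to the fold limit. Without the 2 arrays that stood apart, 8 genes were called, and these 2 were not, at 1.43-fold and 1.40-fold. Both were also lost without -18 h replicate 2 alone or without 12 h replicate 2, and *Mst33A* also without 12 h replicate 3. The 4 genes not called were *Mst57Da*, at a log2 difference of -0.46, *Mst84B* at -0.36, *Mst85C* at 0.16 and *Mst89B* at -0.08. *Mst84B* was called lower without -18 h replicate 1, at 1.52-fold.

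Replicates of a stage differed in a way that the rising genes shared. The 10 genes called at 12 h against -18 h were examined as a group, as a description. Replicate 1 was the lowest array in 10 of 10 genes at -4 h, 0 h, 2 h and 12 h, and in 9 of 10 at 8 h. At -4 h this was one of the 2 arrays that stood apart. Its median deviation was -0.33 for the 10 genes and 0.03 over all tested probe sets. Replicate 2 was the lowest in 9 of 10 at both 6 and 10 h, and in 8 of 10 at 4 h. At -18 h the order was different, with replicate 1 the highest in 8 of 10. How often all tested probe sets shared these lowest or highest arrays was not counted. Neighbouring genes of similar sequence need not be separate readings. At 12 h the median deviation of the 10 genes from their stage means was -0.40 in replicate 1, 0.23 in replicate 2 and 0.22 in replicate 3 on the log2 scale, whereas the median over all tested probe sets was between -0.02 and 0.01 in these arrays. At 10 h it was -0.22 in replicate 2 and 0.22 in replicate 3.

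**Figure D3:**
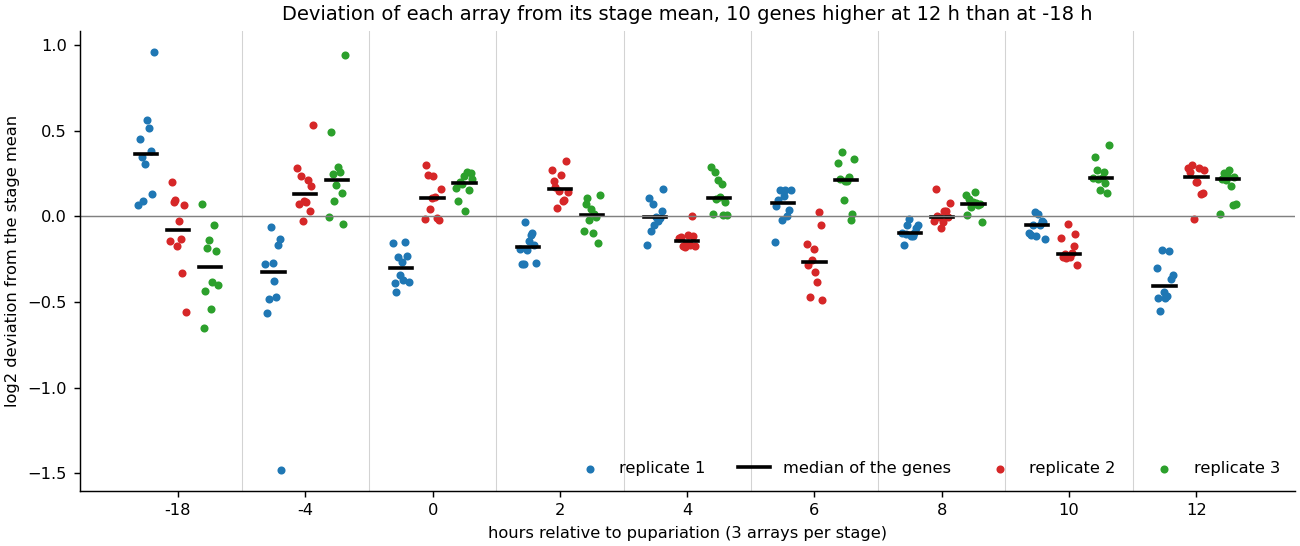
Deviation of each array from its stage mean (log2 units) for the 10 genes called higher at 12 h than at -18 h, with the 3 arrays of each stage side by side and stages in hours relative to pupariation. Each point is a gene in an array, coloured by replicate number, and the bar is the median of the 10 genes, which at 12 h is -0.40, 0.23 and 0.22 in replicates 1, 2 and 3.

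As a description of this shared variation, the deviations from the stage means were correlated between genes over the 27 arrays. The median Pearson r of the 45 pairs of the 10 genes was 0.749, with a range of 0.462 to 0.953, and that of the 91 pairs of the 14 tested genes was 0.518. The median of all pairs of tested probe sets was 0.0124. Without the 2 arrays that stood apart the 3 medians were 0.764, 0.531 and 0.0119. The points share arrays and, in the clusters, neighbouring genes of similar sequence. The genes were selected by their change over the stages, which does not enter the deviations.

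The spread between replicates was accordingly wide for some genes and not for others. Over the 7 stages from 0 to 12 h the pooled SD of log2 intensity was 0.33 for *Mst84Da*, 0.30 for *dj*, 0.28 for *Mst77F* and 0.27 for *Mst87F*, larger than in 96.2, 94.4, 93.1 and 91.3% of the tested probe sets, whose median was 0.14. It was 0.12 for *Mst98Ca* and 0.08 for *Mst85C*, larger than in 39.5 and 8.08%. *Mst98Ca*, one of the rising genes with the smallest folds, thus had a replicate spread near the usual one, and *Mst85C*, which was not called, one of the smaller.

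Whether the number of males in each pool moved these genes was not tested, since sex is not given in the labels. Sex-related transcripts were measured in the same arrays and are given as a description. Whether their summed levels follow the share of males was not tested either, so no sum is a measure of that share. For every list, the yolk and ovary genes included, only a shared lowest array was counted. The array that was lowest for the 10 genes was also lowest for the summed intensity of the 5 male dosage compensation genes (*msl-1*, *msl-2*, *msl-3*, *mle* and *mof*) in 3 of the 9 stages. It was lowest for the 10 yolk and ovary genes in 2 stages. For the 5 sex differentiation genes (*Sxl*, *tra*, *tra2*, *dsx* and *fru*) it was lowest in 2, and for the 9 germ cell genes used by both sexes in 4. For the 9 accessory gland genes, *Mst57Da* and *Mst57Dc* included, it was lowest in 2. A sum unrelated to the 10 genes would share their lowest array in about 1 stage of 3, since each stage has 3 arrays. This baseline concerns the sums only, and the share of males was not tested by it. In the stages where replicate 1 was lowest in 10 of 10 genes, these sums went different ways. The dosage compensation sum in replicates 1, 2 and 3 was 1834, 1116 and 1199 at -4 h, 1028, 1076 and 1106 at 0 h, 1132, 1187 and 1078 at 2 h, and 1298, 1181 and 1157 at 12 h. The germ cell sum was 4629, 2668 and 2296 at -4 h, 1988, 2314 and 2243 at 0 h, 1984, 2484 and 2292 at 2 h, and 1926, 2191 and 2287 at 12 h. Replicate 1 thus held the highest germ cell sum of its stage at -4 h, in one of the arrays that stood apart, and the lowest at the other 3. The sums add probe sets of unequal strength, so that single bright genes weigh most. Over the 27 arrays *tud* alone ran from 807 to 3084, and *msl-2* of the dosage compensation genes from 310 to 1084. Of the yolk and ovary genes, *Vm26Aa* reached 1245 and *Cp36* 901, and what these signals measure was not tested. The germ cell genes *aub*, *piwi*, *bam* and *spn-E* were above the floor on 2, 2, 7 and 0 arrays. The yolk and ovary sum was 4966, 3616 and 3615 at -4 h and 3533, 3484 and 3936 at 12 h. Of the dosage compensation genes, *msl-2*, whose protein is made in males, was measured on all 27 arrays. No probe set carried a *roX* symbol, so the male-specific *roX* RNAs were not used here.

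The genes whose intensity followed the 5 genes of main interest most closely were ranked by Pearson correlation with the mean of the 5 standardized log2 profiles, over 27 arrays and among 10136 genes. The highest were *soti* (0.981), *CG15219* (0.977), *Hsp60C* (0.974), *CG17376* (0.973) and *S-Lap8* (0.972). *soti* is a regulator of caspase activity in spermatids, *Hsp60C* a mitochondrial chaperonin gene needed in spermatogenesis, and *S-Lap8* a sperm leucyl aminopeptidase. Ranked by the deviations from the stage means alone, which leave out the change over time, the highest were *soti* (0.962), *CG12699* (0.956), *CG15219* (0.950), *CG17376* (0.945) and *CG9920* (0.935). The *soti* intensity was 287 ± 99.0 at -18 h and had reached 556 ± 203 at -4 h, and it was 930 ± 99.0 at 8 h and 912 ± 255 at 12 h.

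Genes that act at successive steps of spermatogenesis were compared with these transcripts at 12 h against -18 h. The spermatocyte transcription regulators included testis-specific TAFs and the testis meiotic arrest complex, which activate spermatocyte genes. The list also held further genes such as *tbrd-1*, *tbrd-2* and *kmg*. Of these regulators 0 of 12 tested rose and 1 fell, *can* by 1.65-fold (limma adjusted p = 0.0175), and the list median was -0.24. The *can* call was lost without -18 h replicate 2, at 1.33-fold (limma adjusted p = 0.152), and without both arrays that stood apart 0 were called and the list median was -0.10. Without -18 h replicate 1 or replicate 3, *nht* was called lower beside *can*, with list medians of -0.30 and -0.33. Without 12 h replicate 3, *aly* was called lower beside *can*, with a list median of -0.31. In that list *mia* and *comr* were above the floor on 5 arrays each. Of the tested regulators, *kmg*, *achi*, *wuc*, *tbrd-1* and *can* stayed below the lowest array median of 249.4. Their highest values were 90.6, 144, 163, 168 and 226, and those of the others lay above it. *kmg* was above the floor on 24 arrays. Whether the signals of this list come from the testis was not tested. Of the regulators of meiotic entry 4 of 5 rose, with a median of 0.69. These were *fest* (3.09-fold), *twe* (1.63-fold), the Cdc25 phosphatase of male meiosis, *CycB* (1.62-fold) and *bol* (1.54-fold), which promotes *twe* translation (limma adjusted p = 0.00407, 0.00269, 5.87e-06 and 0.00203). *CycB* is also used by dividing cells outside the testis. Without -18 h replicate 2, *twe* and *bol* lay below the fold limit, at 1.41-fold and 1.42-fold, and *fest* rose 2.15-fold. Without 12 h replicate 1, *twe* and *CycB* lay below it, at 1.48-fold and 1.46-fold.

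Of the postmeiotic and spermatid products, without *Mst77F*, 6 of 17 tested rose and 0 fell, with a median of 0.32. *betaTub85D*, the testis beta tubulin, rose 5.06-fold, *soti* 3.20-fold, *S-Lap7* 2.82-fold, *ocn* 2.41-fold, *S-Lap8* 2.31-fold and *janB* 1.91-fold, with limma adjusted p values from 4.53e-05 to 0.00256. The *betaTub85D* fold moved with single -18 h arrays, from 3.16-fold without replicate 2 to 8.11-fold without replicate 1. Without both arrays that stood apart the 6 calls were kept and *Pglym87* was added. The other 11 were not called in the fit to all arrays. They were *schuy*, *hale*, *r-cup*, *c-cup*, *p-cup*, *m-cup*, *sunz*, *fzo*, *Tektin-C*, *Pglym87* and *S-Lap5*. *ProtB* was at or below the floor on all 27 arrays. *betaTub85D*, *soti*, *S-Lap7* and *S-Lap8* also rose at -4 h against -18 h, by 4.33-fold, 1.90-fold, 1.84-fold and 1.66-fold (limma adjusted p = 0.000366, 0.0231, 0.0194 and 0.0232). The *betaTub85D* step was 2.70-fold without -18 h replicate 2 and 6.93-fold without -18 h replicate 1. The *soti*, *S-Lap7* and *S-Lap8* calls at this step were each lost without -18 h replicate 3 or -4 h replicate 2, and those of *soti* and *S-Lap7* also without -4 h replicate 3, with adjusted p from 0.102 to 0.138 (limma). Without both arrays that stood apart these 4 were called, *betaTub85D* at 2.67-fold and the others at 1.95-fold to 2.32-fold, and *ocn* was added. Of the testis proteasome subunits 1 of 12 was higher (*Prosbeta4R2*, 1.76-fold) and 1 lower (*Prosalpha3T*, 1.61-fold), with a median of -0.04. *Prosbeta4R2* ran from 55.5 to 158 and was above the floor on 25 arrays. The *Prosalpha3T* call was lost without -18 h replicate 2, at 1.26-fold, or without 12 h replicate 1, at 1.37-fold. These counts stand against the 17.4% higher and 11.7% lower of all tested probe sets.

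**Figure D4:**
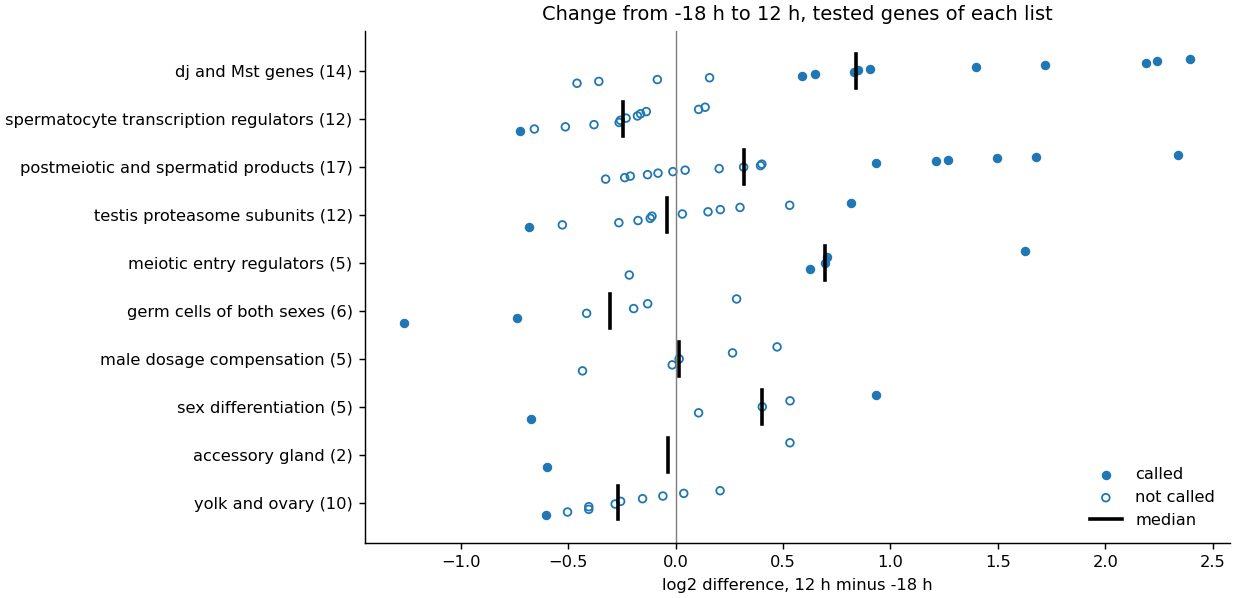
Log2 difference of 12 h minus -18 h (horizontal axis) for the tested genes of each list, with the number tested in brackets. Filled points were called by limma, open points were not, and the bar is the list median, 0.84 for *dj* and the *Mst* genes, 0.69 for the meiotic entry regulators, 0.32 for the spermatid products and -0.24 for the spermatocyte transcription regulators.

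Lists of other germ line, male and female transcripts were counted in the same way. Of the germ cell genes used by both sexes 0 of 6 tested rose and 2 fell, *mael* by 2.40-fold and *bgcn* by 1.67-fold. Of the 5 male dosage compensation genes 0 were called in either direction at 12 h against -18 h with limma (2 at an unadjusted p under 0.05), with a median of 0.02. Of the 5 sex differentiation genes *tra2* rose 1.91-fold and *fru* fell by 1.60-fold, and of the 10 yolk and ovary genes 0 rose and *Yp2* fell by 1.52-fold. The *Yp2* call was lost without -18 h replicate 2 or 12 h replicate 1 (1.45-fold and 1.44-fold), and that of *fru* without -18 h replicate 1 or replicate 3 (1.49-fold and 1.48-fold). *Acp26Aa*, *Acp26Ab*, *Acp36DE*, *Acp76A* and *Acp53Ea*, seminal peptide genes of the accessory gland, were at or below the floor on all 27 arrays. *SP* and *Acp62F* were above it on all 27, and *SP* fell by 1.51-fold, a call that was lost without -18 h replicate 2 (1.36-fold) or without 12 h replicate 1 or replicate 2. Without both arrays that stood apart *Acp62F* was called higher. The accessory gland genes had been listed as absent before adulthood. Of the yolk and ovary genes, *Vm26Aa* gave 678 to 1245 and *Cp36* 643 to 901 over the 27 arrays. Whether such signals come from the transcripts of these genes or from other binding to the probes was not tested.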

How the data were processed

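The deposited data were array intensities on a linear scale, computed and normalized by the authors with dChip 1.2. Use of the mismatch probes is not stated. Intensities under 60.26 (the 10th percentile) were set to that floor and log2 was taken, which limits folds of low genes. Tests used limma 3.58.1 in R 4.3.3, with the 27 arrays and stage as the only factor, 18 residual and 3.55 prior degrees of freedom, checked on simulated data. The simulated noise was independent and equally wide on all arrays, so the check does not cover the 2 arrays that stood apart. The methods name SAM at a false discovery rate under 10% and a 1.5-fold limit; limma replaced SAM so that all stages share 1 model. Per the methods, triplicates were independent, and their number limits the precision. Of 13966 probe sets 12443 carried 1 symbol, 12394 matched to the reference table by gene number.

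Members and lists were chosen with earlier results of these data known. Genes named are the members, the 5 most alike by each correlation, and list genes by lowest F-test p, called genes or genes at the floor. Alternatives were other scaling, floors, filters, array weights, a replicate block, the 6 arrays of 2 stages alone and leaving out arrays. Same-numbered arrays of different stages deviated together weakly (median r 0.168, 57 of 108 above 0.1), so numbers were not taken as pairs. Figures used matplotlib 3.10.9.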

Additional observations from a re-analysis of the deposited data

How the results depend on the processing

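The number of called genes at -4 h against -18 h (5) was 9 with array weights, whose estimation stopped before convergence, and 2 in the 6 arrays alone; it was 5 to 7 with 1 array left out. At 0 h against -4 h it was 0 to 2 with 1 array left out, the highest without -4 h replicate 3. At 6 h against 0 h (1) it was 2 with quantile normalization, 7 with array weights, 2 without both deviating arrays and 0 to 3 with 1 array left out. At 12 h against -18 h (10) the counts ran from 8 to 11 over 16 alternatives, and 8 genes kept their call in all of them; *Mst33A* lost it in 7 and *Mst98Ca* in 4. Over the 9 stages (11) the counts ran from 10 to 12. With the replicate number as a block, 11 genes were called over the 9 stages, 5 at -4 h against -18 h, 10 at 12 h against -18 h and 1 at 6 h against 0 h, and the block changed no call of a gene. Of all 27 arrays 14 correlated best with their own number. No called gene changed direction under any alternative that was run. Of the values of single genes 2693 stayed on their side of the threshold, 28 passed it and 23 fell below it. The planned next-brightest probe set could not be used, since each gene had 1, and the planned *roX* covariate was not run, since no *roX* probe set was found. The refits of the list genes without single arrays were added after the data were seen.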
